A study of Rattus norvegicus with 2 samples.

Results

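Metallothionein and zinc transporter genes were compared between cervical lymph nodes of unstressed and restrained rats, on 1 array per group. The members were 8 genes taken by name, the metallothioneins Mt1a, Mt2A and Mt3, the transcription factor gene Mtf1, the exporter gene Slc30a1 and the importer genes Slc39a14, Slc39a8 and Slc39a10, out of 36174 gene or transcript names on the array. They were read by 10 probes in 28 spots on each array, out of 45598 probes in 58717 spots other than controls. The genes were chosen by their differences between these same 2 arrays, known from an earlier reading of the signals, so their values are a description and carry no test. The C group was the unstressed control, and the RS group had undergone restraint stress, which the paper describes as being tied on the back to a wooden board. All rats were male Sprague-Dawley rats aged 10 to 12 weeks with no other treatment named in the labels, and the paper states that all were killed under halothane anesthesia with an overdose of pentobarbital. The labels give no restraint time for the RS array, whereas the array comparison of the paper is between its C and RS30 groups, of which RS30 had the shortest restraint. Whether an array held RNA of 1 rat or of several is not stated in the sources used here, so that no difference below can be set against a spread between rats. The only error given is that of the spots.

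Metallothioneins are small proteins rich in cysteine that bind zinc and copper, buffer free zinc in the cell and protect it from cadmium and oxidants. The zinc sensor MTF-1, encoded by Mtf1, binds metal response elements before their genes when zinc is high. Glucocorticoids and interleukin-6 are known inducers of metallothionein genes as well, and adipose tissue, liver and immune cells all express them. Proteins of the SLC30 family move zinc out of the cytosol, and those of the SLC39 family move it in.

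Because Mt1a and Mt2A lay far above 2-fold and the zinc-regulated exporter gene Slc30a1 did not, the sequences before their starts are shown, with that of Mt3, whose probe was not above background. Each is the 250 bases before the transcription start in RefSeq (build GRCr8), 5′ to 3′ on the strand of the gene, and capitals mark the metal response element core. The core was searched as TGCACNC and TGCGCNC on both strands, so that a match on the opposite strand reads as its reverse complement. No matches overlapped in these promoters. RefSeq names Mt1a of the files Mt1. The positions are chr19:10832976-10833225, reverse strand, for Mt1a, chr19:10838709-10838958, reverse strand, for Mt2A, chr19:10856081-10856330, reverse strand, for Mt3 and chr13:106021769-106022018, forward strand, for Slc30a1.
Mt1a: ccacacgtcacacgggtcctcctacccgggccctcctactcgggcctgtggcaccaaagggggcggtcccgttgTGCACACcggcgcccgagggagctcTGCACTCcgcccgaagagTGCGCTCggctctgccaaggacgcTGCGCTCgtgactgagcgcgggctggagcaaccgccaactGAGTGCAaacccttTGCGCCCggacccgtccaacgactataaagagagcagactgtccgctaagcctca
Mt2A: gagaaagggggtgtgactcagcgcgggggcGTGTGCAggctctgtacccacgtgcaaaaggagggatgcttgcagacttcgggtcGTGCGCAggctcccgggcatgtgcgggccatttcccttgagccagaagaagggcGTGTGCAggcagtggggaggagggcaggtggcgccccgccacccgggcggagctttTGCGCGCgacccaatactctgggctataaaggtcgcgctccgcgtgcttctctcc
Mt3: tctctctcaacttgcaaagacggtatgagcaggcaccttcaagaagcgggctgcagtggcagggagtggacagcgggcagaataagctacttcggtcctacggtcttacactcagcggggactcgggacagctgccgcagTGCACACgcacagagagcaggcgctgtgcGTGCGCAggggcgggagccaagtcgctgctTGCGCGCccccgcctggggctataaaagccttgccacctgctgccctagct
Slc30a1: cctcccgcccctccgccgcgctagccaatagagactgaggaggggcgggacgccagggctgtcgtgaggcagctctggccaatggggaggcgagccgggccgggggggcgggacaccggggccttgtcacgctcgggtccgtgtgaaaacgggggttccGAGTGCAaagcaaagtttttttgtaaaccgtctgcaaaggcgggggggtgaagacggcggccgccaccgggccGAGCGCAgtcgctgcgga

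The promoter of Mt1a held 6 matches to the metal response element core, and 9 of 33469 promoters of the same length (0.0269%) held as many or more. That of Mt2A held 4 matches, a count that 0.266% of all promoters reached. Mt3 had 3 matches, a count reached by 1.17% of promoters, and Mtf1 and Slc30a1 had 2 each, reached by 4.9%. Slc39a8 and Slc39a10 had 0 matches, whereas 20.6% of all promoters held at least 1. The promoter of Slc39a14 was not analysed here. A TATA box (TATAAA, both strands) lay on the forward strand from -32 to -27 relative to the start in Mt1a and from -31 to -26 in Mt2A and Mt3, and 12.9% of all promoters held this word anywhere. The core of the glucocorticoid response element (AGAACA, both strands) was found in Mtf1 alone among the 7 promoters, against 17.5% of all promoters, and not in the windows of Mt1a and Mt2A. The shares over all promoters were not matched for base composition, and the core words are rich in G and C. G and C made up 66.4% of the window of Mt1a, 66.0% of Mt2A and 62.8% of Mt3. The share was 64.8% in Mtf1, 69.2% in Slc30a1, 59.2% in Slc39a8 and 45.6% in Slc39a10. The matches are letters in a window and do not show binding. Sequence farther from the start was not searched, so a motif absent from the window may still lie outside it.

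**Figure D1:**
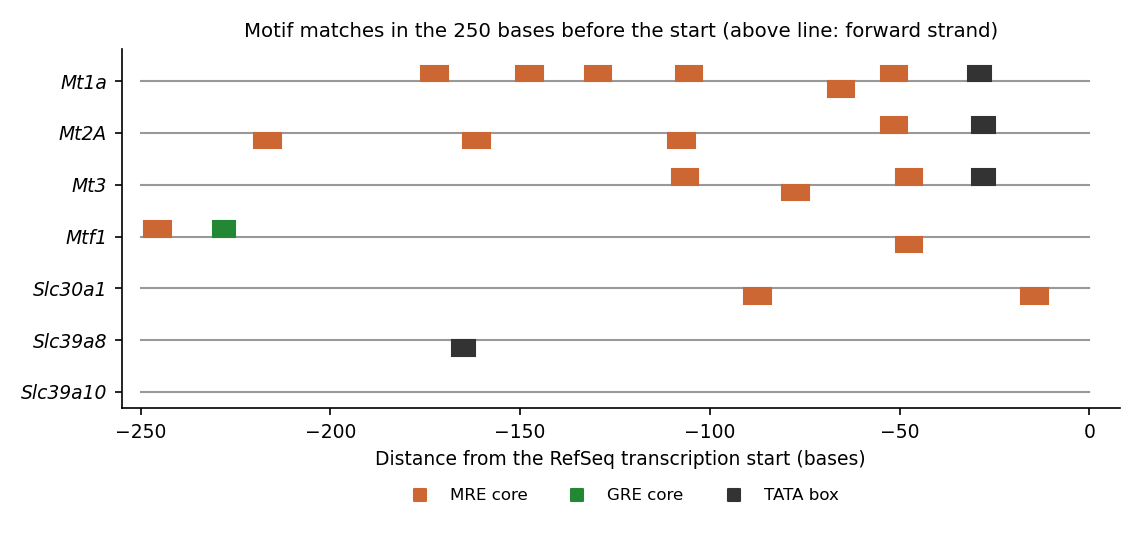
Motif matches in the 250 bases before the RefSeq start of 7 members. The x axis is the distance from the start in bases, a box above a line is a match on the forward strand and a box below it a match on the reverse strand, and the 6 metal response element (MRE) cores of Mt1a and 4 of Mt2A lie between -220 and -49.

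Of the 8 genes, 3 were higher by 2-fold or more on the RS array (Mt1a, Mt2A and Slc39a14) and 0 were lower, where 3.46% of 21096 genes screened were higher and 4.28% were lower by as much. Screened genes are those whose brightest probe the scanner software marked as well above background on 1 or both arrays, and 7 of the 8 genes passed. Over these 7 the median log2 difference, RS minus C, was 0.33, compared with 0.016 over all genes screened. All 7 lay above 0, as did 52.1% of the genes screened. Values are intensities with the background subtracted, and differences are on the log2 scale after taking off each array's 75th percentile (189 on C and 176 on RS).

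**Figure D2:**
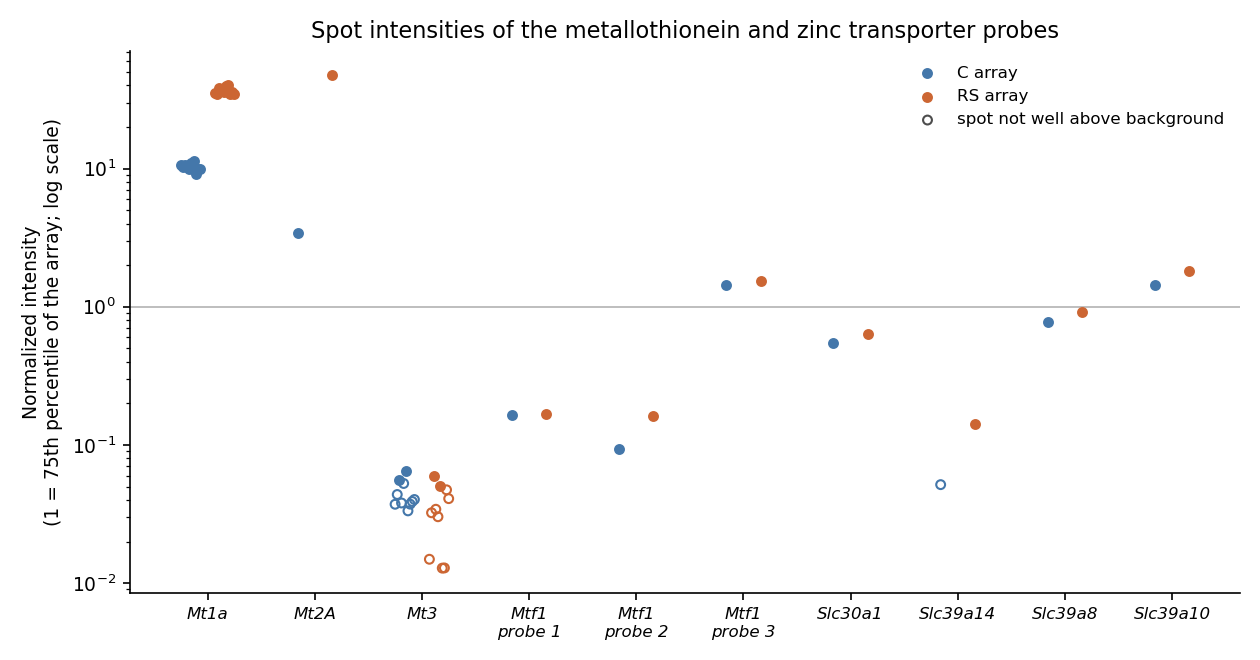
Normalized intensity of each spot of the 10 member probes on both arrays (y axis, log scale, 1 is the 75th percentile of the array), with open circles for spots not well above background. The 10 RS spots of Mt1a all lie above its 10 C spots, while the spots of Mt3 overlap at the bottom of the range.

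Mt2A encodes a metallothionein made in most tissues, and it showed the larger difference of both metallothioneins above background. Its probe (chr19:11267834-11267893 in build rn4, reverse strand) was printed in 1 spot, which read 647 for C and 8326 for RS. This was a 13.8-fold increase, or 3.78 ± 0.20 in log2 units, where the error is the combined error of the spots. It ranked 11 among the increases of the 19214 genes well above background on both arrays, and 17 of the genes screened (0.0806%) rose as much or more.

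Mt1a, the other widely made form, was read by 1 probe in 10 spots (chr19:11261631-11261690, reverse strand). On the C array the spots ran from 1723 to 2142 with a median of 1955, and on the RS array from 6059 to 7136 with a median of 6324. The lowest RS spot was 3.03-fold above the highest C spot after normalization, so the spots of both arrays did not overlap. The SD between spots was 0.088 log2 units on each array, and the increase was 3.54-fold, or 1.82 ± 0.065 in log2 units (spot error). It ranked 135 among genes above background on both arrays, and 0.991% of the genes screened rose as much. Both metallothioneins lay in the brightest quartile of the genes screened, in which 1.52% of genes were higher and 2.26% lower by 2-fold or more. The longest run of bases shared by the 60-base probes of Mt1a and Mt2A was 7, and at the best ungapped alignment 25 of the 60 bases were the same. Neither probe was compared with the transcript of the other gene, so binding of a probe to that transcript was not tested.

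Mt3, known mainly as the metallothionein of the brain, did not rise well above background in either group. Its probe (chr19:11284627-11284686, reverse strand) was printed in 10 spots, 2 of which the software marked as well above background on each array. The C spots ran from 6.30 to 12.2 and the RS spots from 2.26 to 10.5, so the ranges overlapped, and no fold change is given. The median of the negative control spots was 2.16 for C and 1.95 for RS. In RefSeq the genes Mt1, Mt2A, Mt3 and Mt4 follow each other on chromosome 19 with no other gene between them. The probe for Mt4, a form of stratified epithelia, read 1.98 and 1.79 and was not above background on either array, so that the genes of the cluster above background were the neighbors Mt1a and Mt2A alone.

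**Figure D3:**
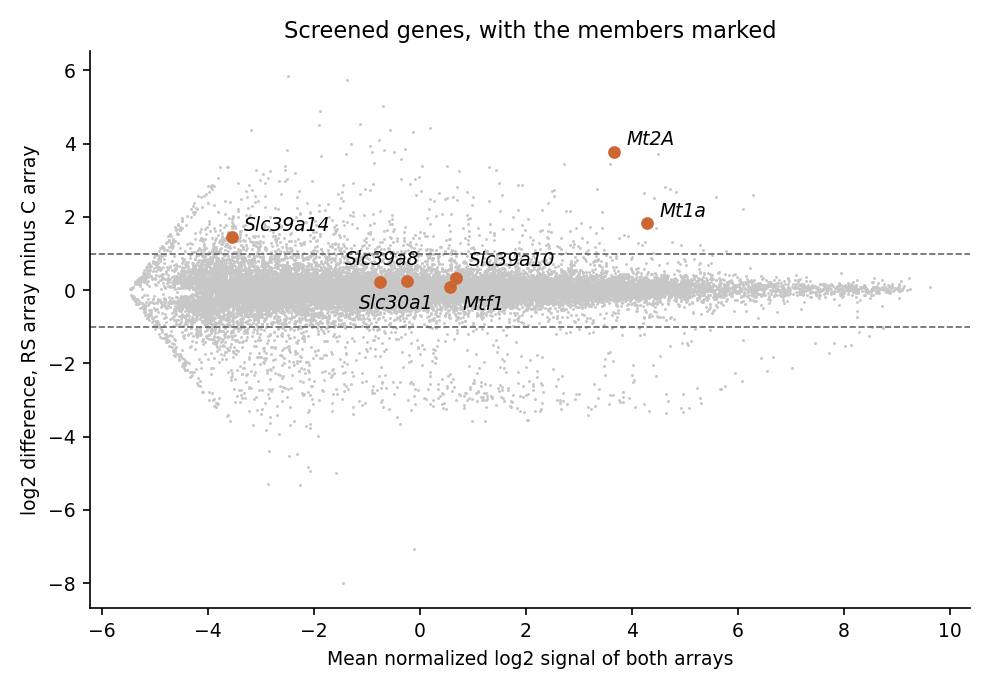
Log2 difference between the arrays (y axis) against the mean normalized log2 signal (x axis) of the screened genes with a value, with 7 members marked and dashed lines at 2-fold. Mt2A and Mt1a stand out among bright genes, Slc39a14 lies among the dim genes, and the other 4 members lie near 0.

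Mtf1 was read by 3 probes on chromosome 5, all above background on both arrays. The brightest (chr5:144181945-144182004, forward strand) read 271 for C and 269.9 for RS, which gave 0.095 ± 0.20 in log2 units, and its transcript accession was not matched in the RefSeq table used here. A second probe, whose 60 bases span chr5:144172266-144175534 and so cross an intron, read 30.8 and 29.7, or 0.044 ± 0.24 after normalization. The third (chr5:144180236-144180295) read 17.6 and 28.7, or 0.81 ± 0.29. The probes therefore did not give the same value, and none reached 2-fold. The mean over the probes was 0.32, and without normalization the brightest probe gave -0.0031.

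Slc30a1 encodes ZnT1, which exports zinc across the plasma membrane and is a known target of MTF-1. Its probe (chr13:107983689-107983748, forward strand) read 103 on the C array and 113 on the RS array. The log2 difference of 0.23 was close to the spot error of 0.21, and 23.9% of the genes screened rose as much. Its promoter printed above held 2 metal response element cores, and a link between cores and array values was not tested.

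Slc39a14 encodes ZIP14, an importer of zinc and iron induced by interleukin-6 in liver. Its probe (chr15:50703832-50703891, reverse strand) was printed in 1 spot and read 9.75 on the C array, not well above background, and 24.9 on the RS array, where it was. By the rule used for bounds, Slc39a14 was 2.73-fold higher (1.45 ± 0.41 in log2 units). This bound is the plain ratio of both signals, since 9.75 lies above the dimmest C signal that was marked as well above background (9.45). It is therefore an estimate with the spot error given and no firm lower limit. The gene lay in the dimmest quartile, in which 6.2% of genes were higher and 7.64% lower by 2-fold or more. With the normexp background correction, which adds an offset to every signal, the log2 difference was 0.33 and Slc39a14 was under 2-fold.

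Slc39a8 encodes ZIP8, an importer of zinc and manganese found in immune cells. Its probe (chr2:233403324-233403383, forward strand) read 147 and 162, a log2 difference of 0.24 with an error of 0.21. Slc39a10 encodes ZIP10, an importer with a role in B cell survival whose gene is repressed by MTF-1. It read 270.2 and 318 (chr9:52217551-52217610, forward strand), a log2 difference of 0.33 with an error of 0.20, and the accession of this probe, the only one for the gene, was likewise unmatched. Neither reached 2-fold, and 22.7% and 16.3% of the genes screened rose as much as Slc39a8 and Slc39a10, respectively.

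**Figure D4:**
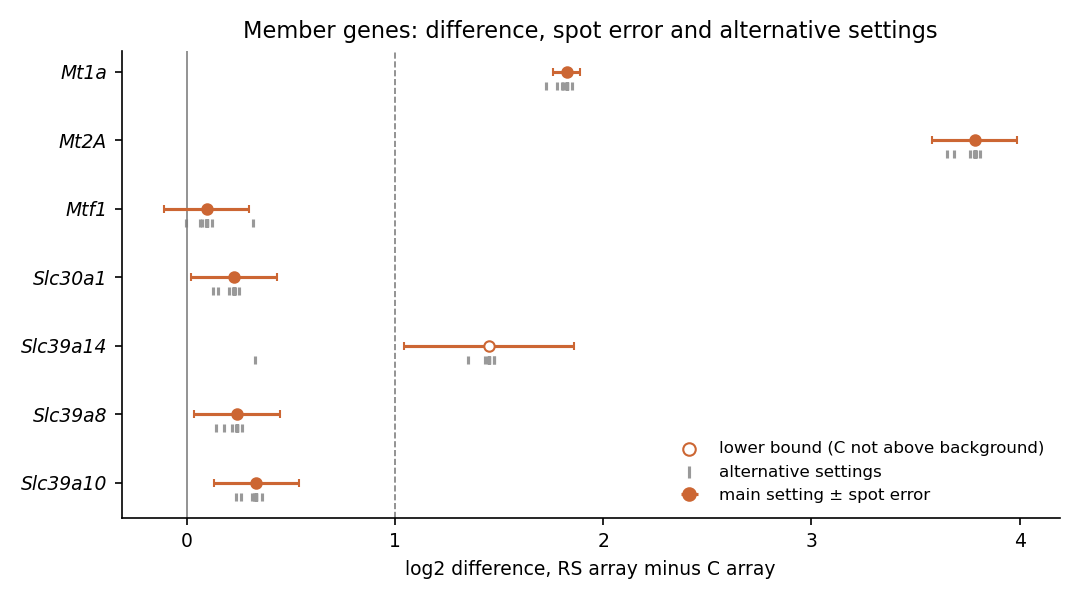
Log2 difference, RS array minus C array, of the 7 members above background on at least 1 array (circles), with the combined spot error as bars and the values under the alternative settings as ticks. Mt1a and Mt2A stay right of the dashed line at 2-fold in every setting, and the tick at 0.33 for Slc39a14 is the normexp setting. The open circle of Slc39a14, labeled a lower bound, is the plain ratio of both signals and no firm limit.

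The rest of the zinc transporter families gave 0 genes higher by 2-fold or more, where 3.46% of all genes screened were higher and 4.28% lower. In families this small, 0 higher genes lies near that share. Of 9 other SLC30 exporter genes, 7 were above background on at least 1 array, with a median log2 difference of 0.065 and 0 genes past 2-fold in either direction. The highest of them was Slc30a4 at 0.42 (error 0.22), which loads zinc into vesicles and milk. The lowest was Slc30a2 at -0.43 as a bound (error 0.65), since its probe went from 12.3 to 5.55 and was above background on the C array only. Slc30a8 and Slc30a10 were not above background on either array. Of 11 other SLC39 genes, 10 were above background, with a median of -0.033, and Slc39a9 and Slc39a12 were lower by 2-fold or more. Slc39a9, which encodes a zinc transporter of the secretory pathway, read 197 on the C array and was 2.45-fold lower on the RS array (-1.30 ± 0.21 in log2 units). Slc39a12 went from 28.5 to 11.8, a difference of -1.17 with an error of 0.33. With normexp neither was lower by 2-fold (0 genes). Slc39a5 was the highest of the family at 0.86 by its brighter probe (error 0.25), whereas its other probe went from 10.5 to 3.67. The probes for Slc39a1 also differed: the brighter went from 1363 to 1482, a log2 difference of 0.22, and the other from 174 to 36.2, a difference of -2.16. Of the lower genes of the whole array, 45.2% were read by a probe that held an AG repeat of 6 bases or longer. Such a probe read 2.88% of the higher genes and 4.80% of all genes screened. None of the 10 member probes and none of the 27 probes of Mt4 and the other SLC30 and SLC39 genes held such a run (0 and 0).

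**Figure D5:**
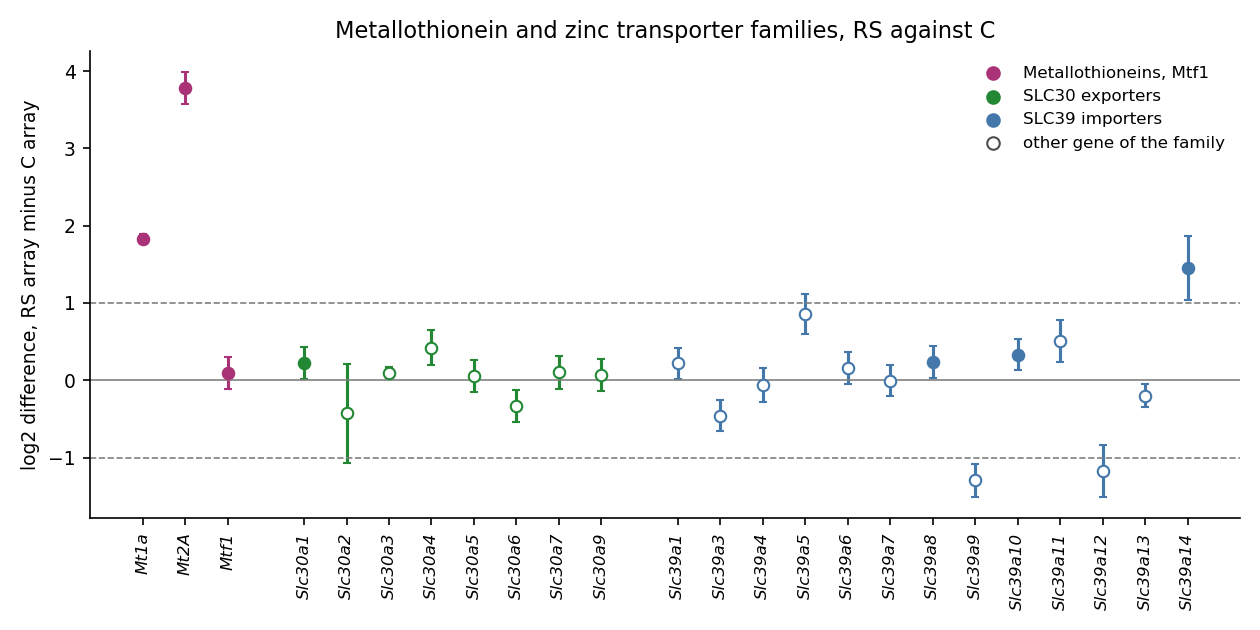
Log2 difference, RS array minus C array, of the metallothionein, SLC30 and SLC39 genes above background on at least 1 array, with the combined spot error as bars, filled circles for members and open circles for the other genes. Slc30a2 is a bound, and Slc39a14 is the plain ratio of both signals, with its C signal not well above background. Dashed lines mark 2-fold, and Mt1a, Mt2A and Slc39a14 lie above 2-fold while Slc39a9 and Slc39a12 lie below it.

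Of 20 copper and iron handling genes, 19 were screened and 0 were past 2-fold in either direction, with a median log2 difference of 0.31. Over all genes screened 3.46% were higher and 4.28% lower, so 0 in a list this short lies near those shares. Of those above background on both arrays, the farthest from 0 were the copper pump genes Atp7b (0.82) and Atp7a (0.75) and the ferroxidase gene Heph (0.74). Steap3, a ferrireductase gene, was above background on the RS array only (4.03 to 13.6) and has a lower bound of 0.62, and with plain ratios in place of bounds 1 gene of the list was higher by 2-fold or more. The ferritin genes Fth1 and Ftl1, which store iron, were at 0.047 and 0.074.

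Over all genes screened, 3.46% were higher and 4.28% were lower by 2-fold or more. In a list of 12 glucocorticoid response genes, 6 of the 10 screened were higher by as much and 0 were lower. The 10 had a median log2 difference of 1.15. With normexp 4 were higher. The farthest from 0 were Errfi1 (3.43), Dusp1 (2.24) and Per1 (1.84). Under 2-fold were Ddit4 (0.77), Fkbp5 (0.76), Nfkbia (0.47) and Sgk1 (0.028), and Zbtb16 and Pdk4 were not above background on either array. In a list of interleukin-6 and acute phase genes, 7 of the 12 screened were higher and 0 were lower, with a median of 1.27, and 6 were higher with normexp or without probes holding an AG repeat. Il6 itself went from 9.99 to 98.6, a difference of 3.40, the feedback inhibitor gene Socs3 was at 2.81 and Cebpb at 2.18. Under 2-fold were Il6r (0.60), Stat3 (0.50), Lcn2 (0.31), Hp (0.26) and Il6st (0.017), and Osmr and Fga were not above background on either array. In a list of metal and oxidative stress genes, 2 of the 9 screened were higher and 1 was lower, with a median of 0.48, and the lower call was lost with normexp. These were the chaperone gene Hspa1a (4.43), the sulfiredoxin gene Srxn1 (4.36) and the cystine transporter gene Slc7a11 (-1.27). Hmox1, which heavy metals and heme induce, was at 0.95 with an error of 0.20. The lists were drawn up with earlier results of these arrays known, so these counts do not bear independently on the metallothioneins.

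Markers of other cells differed between the arrays along with the metallothioneins. Of 11 fat cell genes, 10 were above background on both arrays and 7 were higher by 2-fold or more. Their summed normalized intensity was 2.39-fold higher on the RS array, with Cfd and Lpl the brightest, and Plin1 was not above background on either array. Of 9 erythrocyte genes, 7 were above background and 7 were higher, with a sum 6.02-fold higher led by Hba1 and Hbb-b1, while Slc4a1 and Epb42 were not above background. Of 7 neutrophil genes, 4 were screened and 2 were higher, S100a9 and S100a8, with a sum 8.73-fold higher, while the granule genes Mpo, Elane and Camp were not above background. Gene by gene, the fat cell genes above background ran from 1.40-fold to 9.47-fold and the erythrocyte genes from 2.65-fold to 7.37-fold, and S100a9 and S100a8 were 13.7-fold and 15.9-fold higher. The part of these cells in the values of Mt1a, Mt2A and Slc39a14 was not tested, and in whole nodes more cells of a type and more RNA per cell cannot be told apart. The lymph node label fitted its markers: 8 of 8 T cell genes on the array, led by Cd3g and Cd3d, were above background on both arrays. Their sum was 0.901-fold of that on the C array, and those of macrophage (C1qa, Cd68) and endothelial (Prox1, Pecam1) genes were 0.967-fold and 1.20-fold. Most of the endothelial sum was Prox1 alone (23122 of 28688 on the C array), and the other endothelial genes ran from 0.754-fold to 1.57-fold. The sums of salivary gland (Prpg1, Smgc) and skeletal muscle (Tnnt3, Mb) genes were 0.776-fold and 1.04-fold. Of these, 2 of 6 salivary gland genes and 5 of 8 muscle genes on the array were above background on at least 1 array. The salivary gland sum was only 39.9 for C and 28.9 for RS, so its ratio rests on dim signals.

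Among genes above background on both arrays, those nearest to Mt2A in their normalized values on both arrays were Crem, which encodes a cAMP response factor and went from 688 to 7049 (log2 difference 3.46), and the hemoglobin genes LOC689064 (2.75) and Hbe2 (2.67). Nearest to Mt1a were an immunoglobulin lambda transcript named ENSRNOT00000046465 (1.69), the collagen gene Col3a1 (1.33) and the annexin gene Anxa1 (1.23). The likeness is the distance between 2 pairs of log2 values, one value per array. From Mt2A it was 0.26 for Crem, but 0.87 for LOC689064 and 1.12 for Hbe2, which are thus not close. From Mt1a it was 0.28 for the immunoglobulin transcript, 0.35 for Col3a1 and 0.43 for Anxa1.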

How the data were processed

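Total RNA of cervical lymph nodes, labeled with Cy3, was hybridized to 1 Agilent SurePrint G3 Rat array per group (C and RS). The authors extracted the spots by Agilent Feature Extraction, version 11.5.1.1. The deposited intensity values are background-subtracted within each array and not normalized between arrays. The deposited series table holds log2 values, whose scale is not stated with it: all 45598 probes (100%) lay within 0.1 of the log2 scanner intensity after a shift by each array's 75th percentile, the GeneSpring step of the paper. The column medians were -3.52 (C) and -3.55 (RS). Both arrays were read in 1 scan.

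Control spots and spots marked as non-uniform or population outliers (489 on the C array, 660 on the RS array, 0 of the members) were left out. No member spot was saturated (0). Spots were averaged as log2 intensity, no pseudocount was added, and each array was shifted by its 75th percentile. A probe was above background when over 50% of its spots were so marked, and this held for 54.7% of probes on the C array and 54.9% on the RS array. A gene was represented by its brightest probe, and all probes of members are given. Where 1 array was not above background, the fold is a bound. Its lower side is the dimmest signal marked above background there (9.45 on C, 8.52 on RS) or the signal of the probe itself where that was brighter. The threshold was 2-fold, as in the paper. No p-value can be had from 1 array against 1, and the number of arrays limits the precision. The spot error combines the errors the scanner software gives for the spots of both arrays.

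Named were all 8 members, other zinc family genes past 2-fold or at the ends of their list, the 3 genes of each further list farthest from 0, the 2 brightest genes of each marker list (1 list is not reported here), and the 3 nearest neighbors of Mt1a and Mt2A; a few further list genes (Fth1, Ftl1, Steap3, Hmox1, the probes of Slc39a1, and the markers not above background) were chosen after their values were seen. Members and lists were chosen with earlier results of these data known. Probe positions are given in rn4, the build named in the scanner files, and no annotation of that build was used here. Promoters came from a RefSeq table (GRCr8) that held 7 of the 8 members. Of the 10 member probes, 8 matched a RefSeq transcript (the exceptions were the brightest Mtf1 probe and the Slc39a10 probe), all under the same gene apart from the name Mt1 for Mt1a. The steps were tested on simulated arrays. In all 11 other settings were tried, and 1 more was added after seeing the data. Python 3.11.15 (pandas 2.3.3, numpy 2.4.6, matplotlib 3.10.9) was used, and limma 3.58.1 under R 4.3.3 for normexp.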

Additional observations from a re-analysis of the deposited data

How the results depend on the processing

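Of 83 member values under the alternatives, 80 stayed within the spot error of the value given and 0 of the genes past 2-fold turned direction. The exceptions were Mt1a without normalization (1.73, still past 2-fold), Slc39a14 with normexp (0.33, under 2-fold) and Mtf1 as the mean over its probes (0.32). Normexp adds an offset, which shrinks the differences of dim probes by construction. Several other settings could hardly move a member value, so the 80 of 83 is largely fixed by their choice. Of the members, 7 had 1 probe, and 0 member spots were outliers. No member probe held an AG repeat (0), and the deposited table used the same shift. The background filters and plain ratios left each remaining member value as it was. Slc39a14 had no value when both arrays had to be above background. The number of members higher by 2-fold or more was 2 with normexp and with that filter and 3 in the other settings, and 0 were lower in each. Mt1a ranged from 1.73 to 1.85 and Mt2A from 3.65 to 3.81. Of the wider lists, higher glucocorticoid genes fell from 6 to 4 with normexp, higher interleukin-6 genes from 7 to 6 with normexp and without AG repeat probes, and the counts of lower SLC39 genes and of lower oxidative stress genes were 0 with normexp. With plain ratios instead of bounds, and without a background filter, 1 copper and iron gene was higher and 1 SLC30 exporter was lower. Leaving out probes with an AG repeat, chosen after seeing the data, changed no member, and gave 716 genes higher and 498 lower over the array. For all genes, the number higher and lower was 234 and 378 with normexp, 2031 and 2148 without a background filter, and 493 and 601 with genes above background on both arrays, against 730 and 903. No paired analysis was possible because C and RS were 1 array each, and there was no replicate to leave out. Dim probes limit what can be said of Mt3 and Slc39a14.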

Other observations

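Some probes that the files describe as zinc family transcripts carry a transcript name in place of a gene name and entered no list. The probe for ENSRNOT00000065550, described as a variant of Slc30a9, went from 2373 to 2454, a log2 difference of 0.15, and that for ENSRNOT00000073221, described as Slc39a3, from 229 to 181, a difference of -0.24. The probes named Slc30a9 (0.065) and Slc39a3 (-0.46) had differences of the same sign. Mtl5, described as a metallothionein-like gene of the testis, went from 16.2 to 5.71 and was above background on the C array only.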
